A study of Mus musculus with 8 samples.

Results

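Immediate early and serum response genes were followed in primary mouse embryonic fibroblasts, cells taken directly from embryos, with and without the cryptochromes Cry1 and Cry2, the repressors of the circadian clock. The members are 35 named genes: AP-1 subunits, EGR factors and their corepressor Nab2, KLF factors, dual-specificity phosphatases, Sprouty proteins, IER proteins, secreted factors and the enzyme Ptgs2, other regulators and effectors. Of these 35, 32 had a probe set annotated to that gene alone, among 13307 genes with such a probe set. Of the 32, 30 lay above the signal floor (6.05 on the log2 scale, described with the processing) and were tested with 9515 genes in all. Fosb and Gem lay under the floor, and Dusp2, Areg and Arc had no named probe set in the table used here.

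The 8 arrays came from 8 independent lines, 4 wild-type (WT) and 4 Cry1-/-|Cry2-/- (Cry DKO). All lines shared a near-C57BL/6J background (more than 7 backcrosses from BL6/129 mice), medium with 10% fetal calf serum, 3% oxygen, with no agent named as a treatment. They proliferated without synchronisation. The medium held serum, so the values are levels in growing cultures. How far they hold a response to fresh medium was not tested. The age of the embryos was not given in the sources used here. Below, values are probe set signals on the log2 scale, differences are Cry DKO minus WT, SD and SE refer to n = 4 lines per genotype, and an adjusted p is that of limma after the Benjamini-Hochberg procedure on all 9515 genes.

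Immediate early genes are switched on within minutes of a growth factor or serum signal, without new protein synthesis, by transcription factors already in the cell. The ERK kinase cascade and actin dynamics act through serum response factor (SRF) and its cofactors at CArG boxes, and cAMP and calcium signalling act through CREB at cAMP response elements. Many of the products then damp the signal: dual-specificity phosphatases dephosphorylate MAP kinases, Sprouty proteins restrain the pathway to ERK, Nab2 represses EGR factors and Zfp36 destabilises the messages themselves. In cultured fibroblasts these genes are the textbook response of resting cells to fresh serum.

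Promoter sequences from RefSeq (build GRCm38.p6) were matched to 23 of the 32 genes. Fosl1, Egr1, Egr3, Ier2, Dusp4, Klf10, Hbegf, Spry4 and Gem are those without one here. Stretches of 250 bases before the start are shown for Dusp1 (chr17:26508473-26508722, minus strand) and Ier5 (chr1:155099637-155099886, minus strand), the 2 genes that passed the test as lower in Cry DKO lines. Dusp5 (chr19:53528895-53529144, plus strand) and Zfp36 (chr7:28379229-28379478, minus strand) are shown as carriers of CArG boxes and Fos (chr12:85473640-85473889, plus strand) as the founding gene of the group. Capitals mark matches, on either strand, to the CArG box, the cAMP response element core TGACG and its full form TGACGTCA, the AP-1 sites TGACTCA and TGAGTCA, the EGR sites GCGTGGGCG and GCGGGGGCG, and the E-box CACGTG.
Dusp1: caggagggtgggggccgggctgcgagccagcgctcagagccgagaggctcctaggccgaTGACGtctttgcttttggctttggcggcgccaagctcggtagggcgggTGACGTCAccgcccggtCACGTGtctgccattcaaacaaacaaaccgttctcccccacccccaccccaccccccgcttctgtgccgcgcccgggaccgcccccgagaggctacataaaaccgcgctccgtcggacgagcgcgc
Ier5: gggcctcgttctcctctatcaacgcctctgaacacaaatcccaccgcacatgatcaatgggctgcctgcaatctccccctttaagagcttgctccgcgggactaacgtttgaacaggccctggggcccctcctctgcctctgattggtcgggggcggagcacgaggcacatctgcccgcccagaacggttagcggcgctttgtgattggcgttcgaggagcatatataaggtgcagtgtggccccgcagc
Dusp5: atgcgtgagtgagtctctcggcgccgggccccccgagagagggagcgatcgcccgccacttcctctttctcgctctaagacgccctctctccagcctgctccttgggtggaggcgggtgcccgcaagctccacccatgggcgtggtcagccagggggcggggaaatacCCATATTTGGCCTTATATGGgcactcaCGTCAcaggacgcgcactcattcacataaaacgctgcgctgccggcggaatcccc
Zfp36: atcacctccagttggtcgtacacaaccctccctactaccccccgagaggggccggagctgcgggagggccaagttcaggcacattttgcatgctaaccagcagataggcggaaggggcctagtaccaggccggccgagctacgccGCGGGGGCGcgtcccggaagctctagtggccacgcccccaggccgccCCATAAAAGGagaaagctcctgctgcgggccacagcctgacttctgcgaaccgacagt
Fos: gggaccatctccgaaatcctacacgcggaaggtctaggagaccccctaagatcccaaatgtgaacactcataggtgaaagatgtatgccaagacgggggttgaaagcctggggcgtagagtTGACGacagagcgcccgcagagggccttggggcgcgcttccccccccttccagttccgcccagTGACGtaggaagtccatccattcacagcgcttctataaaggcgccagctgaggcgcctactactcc
The Dusp1 stretch holds a full cAMP response element from -143 to -136 and an E-box, the element bound by CLOCK and ARNTL, from -126 to -121, counted from the start. It also holds a TGACG core from -191 to -187. The Ier5 stretch matches none of these motifs. Dusp5 has 2 adjoining CArG boxes between -82 and -63, and Zfp36 has 1 from -58 to -49.

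Counted per gene over 250 bases before to 50 after the start, 4 of 23 member genes held a CArG box (17.4%, Dusp5, Egr2, Srf and Zfp36), against 1.81% of the 27025 genes with a promoter. The TGACG core, which the full element contains, was in 12 (52.2%, against 23.0%) and the full TGACGTCA in 2 (8.70%, against 2.03%), Dusp1 and Maff. EGR sites were in 7 (30.4%, against 3.93%) and the E-box in 6 (26.1%, against 8.09%): Dusp1, Egr2, Klf4, Klf6, Maff and Ptgs2. An AP-1 site was in 1, Csrnp1 (4.35%, against 5.95%). A gene counted if any of its windows held the motif. The 23 member genes had 32 windows and all 27025 genes had 32851. These matches are descriptions of letters in a short window and not of binding. Sites outside the window, for Fos as for any other gene, were not looked for.

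**Figure D1:**
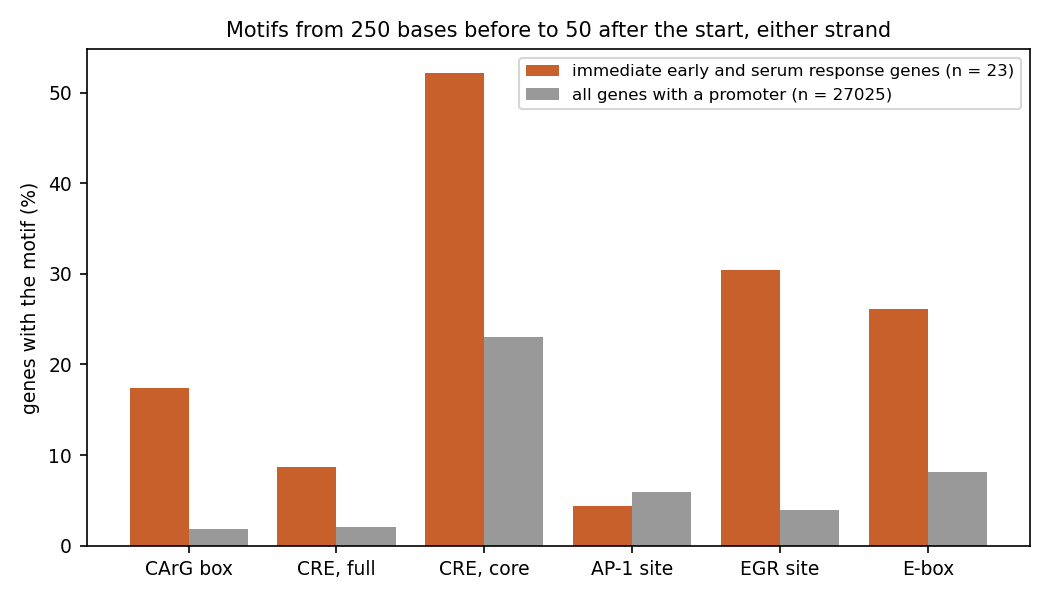
Share of genes (%) with each motif in the window around the start, for 23 member genes and all 27025 genes with a promoter; CRE stands for the cAMP response element. The CArG box was in 17.4% of the member genes and in 1.81% of all genes.

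Array medians lay between 6.78 and 6.79. Cry1 and Cry2 did not pass (differences -0.50 and -0.34, limma adjusted p = 0.168 and 0.132, exact two-sided permutation p = 0.114 and 0.0571). Whether their probes lie in the deleted parts was not given in the sources used here, and they do not check the labels. Of 12 fibroblast markers 9 were tested, with a mean of 13.1 to 13.2 in WT and 12.9 to 13.1 in Cry DKO lines. None passed in limma, against 9.17% of all tested genes. An unadjusted p under 0.05 was found for 2 (22.2%, against 25.3%), and the median difference was -0.07. The 3 others, Pdgfra, Dcn and Lum, were under the floor in their means (5.50, 5.58 and 5.04). All 19 macrophage and blood cell markers were above the floor. Of these 11 rose (57.9%, against 4.95% of all tested genes), none fell, and their median difference was 0.78. The mean of these 19 was 8.26 to 8.90 in WT and 8.91 to 9.89 in Cry DKO lines. No endothelial marker, 1 of 6 epithelial (Krt18) and 1 of 5 neural markers (Tubb3) was above the floor. In such bulk RNA, fewer cells of a type and less RNA per cell cannot be told apart.

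Across the group, 3 of 30 tested genes passed an adjusted p of 0.05, 2 lower (Dusp1 and Ier5) and 1 higher (Klf10). That is 10.0%, beside 9.17% of all tested genes (4.95% higher and 4.22% lower), so the share is near the background. The 2 genotypes did not overlap for 4 of 30 (13.3%, against 16.8% of all genes): Ier5, Klf10, Zfp36 and Csrnp1. An unadjusted p under 0.05 was found for 7 of 30 (23.3%, against 25.3%). The median difference was 0.03, against -0.01 over all genes, with 17 differences above and 13 below 0. The 95% interval of the difference lay within 0.5 log2 units of 0 for 22 of the 30, against 7577 of all 9515 genes. It lay within 1 unit for 29, Egr3 being the exception, against 9254 of all 9515. These intervals bound the change of most members, but a p that misses the threshold does not show that the genotypes are alike.

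**Figure D2:**
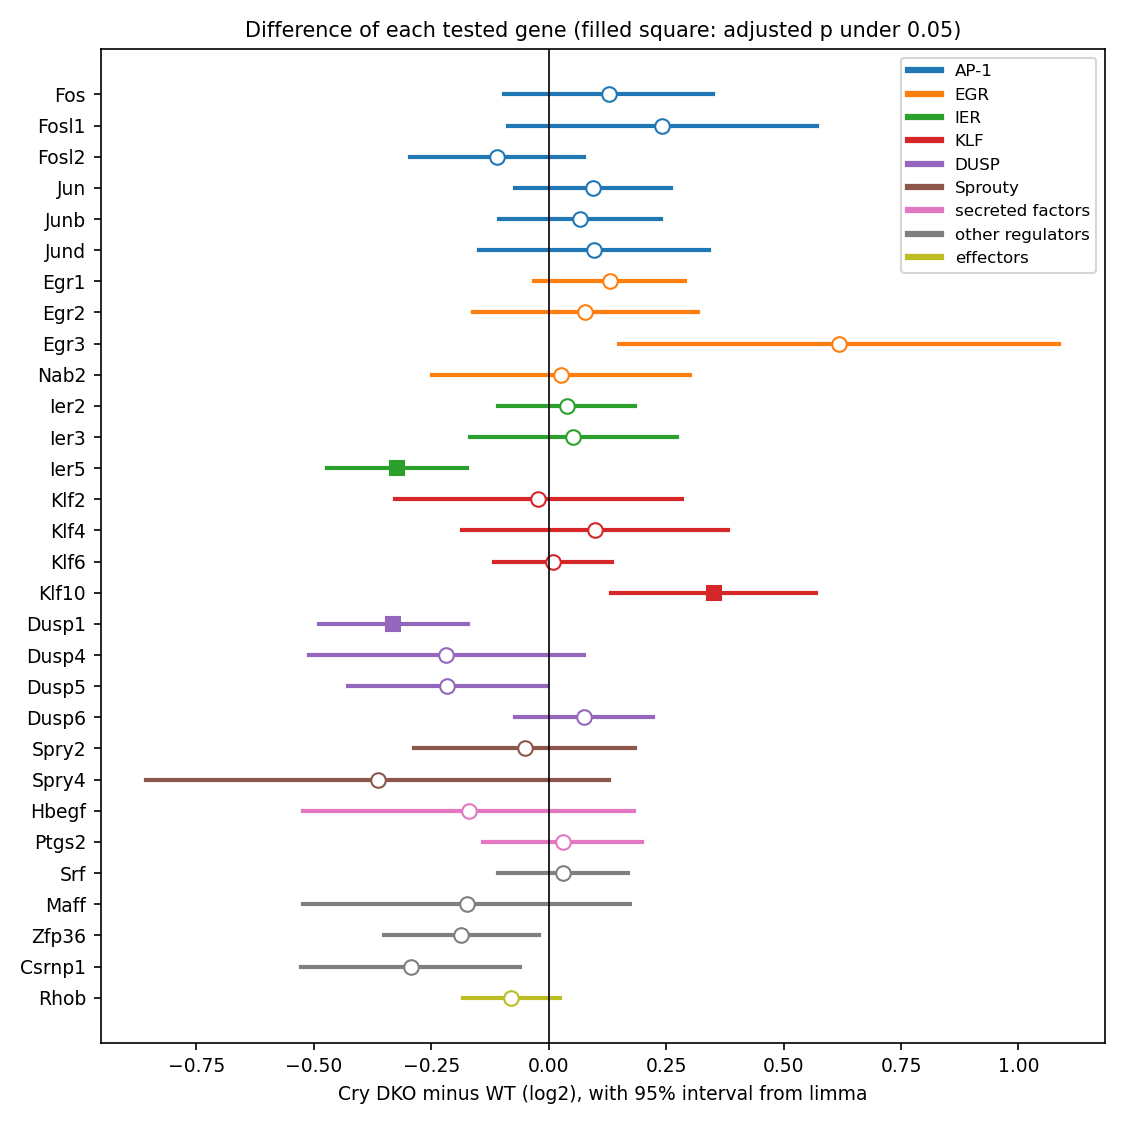
Difference, Cry DKO minus WT (log2), of each of the 30 tested genes with its 95% interval from limma; colours give the class and filled squares mark an adjusted p under 0.05. Dusp1 (-0.33) and Ier5 (-0.32) lie below 0 and Klf10 (0.35) above, and most other intervals cross 0.

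Dusp1 encodes a nuclear phosphatase that inactivates p38, JNK and ERK. Its signal was 11.43, 11.19, 11.41 and 11.46 in WT lines 1 to 4 and 11.03, 10.99, 11.19 and 10.94 in Cry DKO lines 1 to 4. The highest Cry DKO line (line 3, 11.1904) only just exceeded the lowest WT line (line 2, 11.1895), and the other lines were apart. Dusp1 fell by 0.33 (SE 0.07, 95% interval -0.49 to -0.17, limma adjusted p = 0.0195). Without WT line 1, 3 or 4 the difference was -0.31, -0.32 and -0.30, and the call ended (adjusted p = 0.0546, 0.0590 and 0.0507). Over all 20 alternatives it was between -0.39 and -0.30.

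Ier5, a regulator of heat shock and phosphatase signalling, was the other gene to fall. Its probe set of highest mean gave 10.51, 10.48, 10.49 and 10.54 in WT lines 1 to 4 and 10.06, 10.30, 10.30 and 10.08 in Cry DKO lines 1 to 4. WT lines lay close together, and every Cry DKO line was below every WT line. The difference was -0.32 (SE 0.07, 95% interval -0.47 to -0.17, limma adjusted p = 0.0172). When each probe set was tested, the other 2 probe sets gave -0.51 (SE 0.11, adjusted p = 0.0185) and -0.33 (SE 0.10, adjusted p = 0.0866), so all 3 pointed the same way and the last did not pass. The genotypes overlapped in that last probe set only, where WT line 4 had 7.411 and Cry DKO line 3 had 7.416. The call held in each of the 8 fits without 1 line.

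Klf10, a zinc finger factor induced by TGF-beta, had 8.22, 8.19, 8.57 and 8.59 in WT lines 1 to 4 and 8.79, 8.66, 8.79 and 8.74 in Cry DKO lines. WT lines fell into a low and a high pair, and every Cry DKO line was above all of them. It rose by 0.35 (SE 0.10, 95% interval 0.13 to 0.57), with an adjusted p of 0.0499 by limma, at the edge of the threshold. The call ended in 7 of the 8 fits without 1 line: without WT line 1, 2 or 3 and without any 1 Cry DKO line (adjusted p = 0.0551 to 0.132, difference 0.29 to 0.41). It also ended with the arrays rescaled, by quantiles (adjusted p = 0.0506) or by medians (0.0504).

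Of the macrophage and blood cell markers, 11 of 19 rose in the same Cry DKO lines. With the mean of all 19 as a covariate, which itself differs between the genotypes, the difference was -0.36 for Dusp1, -0.25 for Ier5 and 0.31 for Klf10. None of these passed in that fit (limma adjusted p = 0.186, 0.290 and 0.369), in which 12 genes passed as higher and 20 as lower over the whole table. The part of such cells in the results was not tested further.

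**Figure D3:**
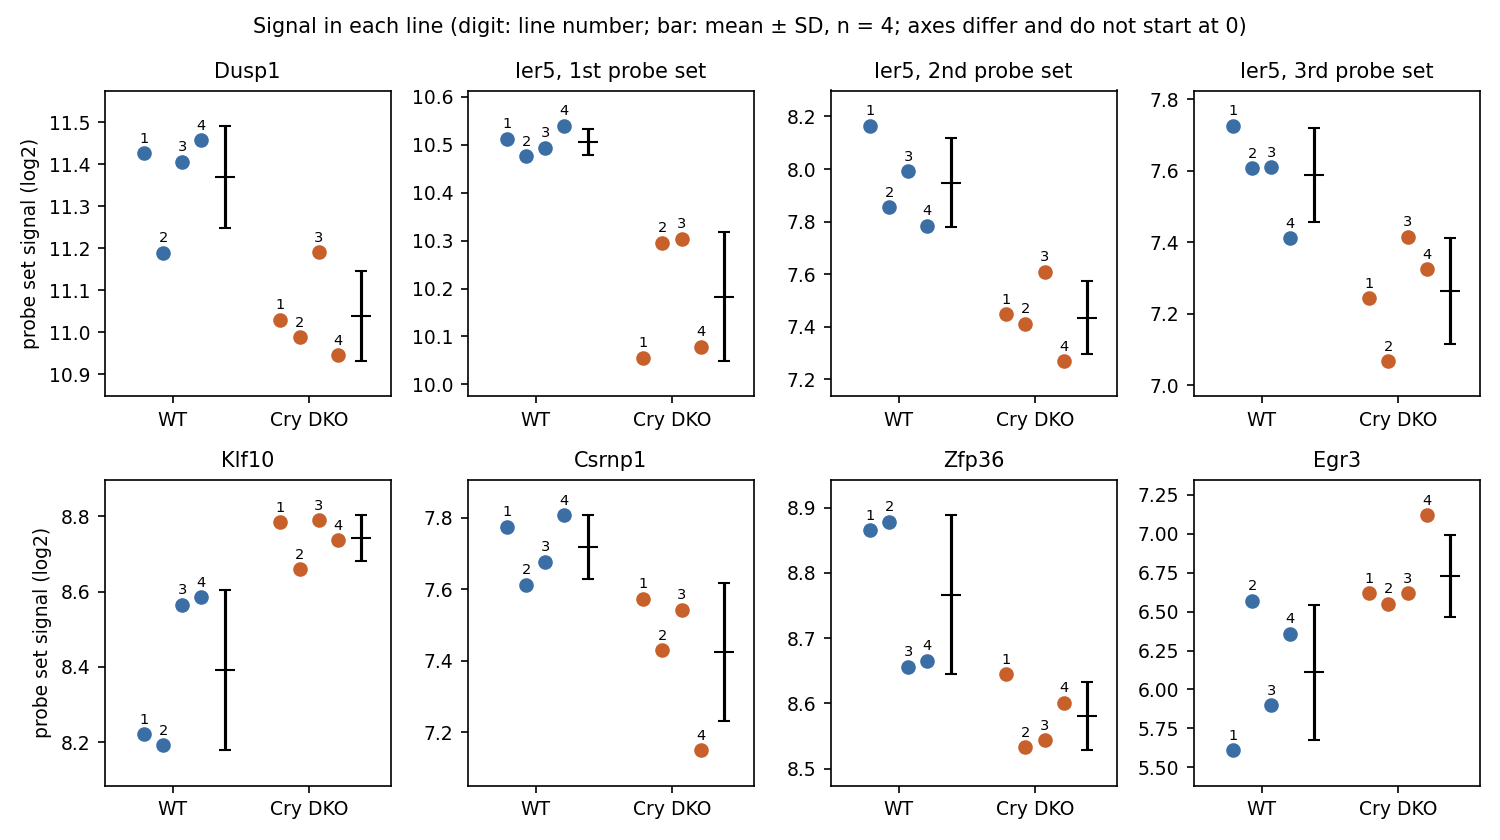
Probe set signal (log2) in each line for the 3 genes that passed (Dusp1, Ier5 with each of its 3 probe sets, Klf10) and for Csrnp1, Zfp36 and Egr3, which did not; digits give the line number and bars the mean ± SD of 4 lines. For Ier5 the first probe set shows WT lines at 10.48 to 10.54 and Cry DKO lines at 10.06 to 10.30.

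Among the AP-1 subunits, which pair as FOS and JUN proteins to bind AP-1 sites, none of 6 tested genes passed, against 9.17% of all tested genes. None had an unadjusted p under 0.05, against 25.3% of all, and their median difference was 0.10. The classes hold too few genes for such shares to be compared. Fos, the prototype of the group, had 7.58, 7.64, 7.61 and 7.88 in WT lines 1 to 4 and 7.92, 7.67, 7.68 and 7.94 in Cry DKO lines. The genotypes overlapped, and the difference was 0.13 (95% interval -0.10 to 0.35, adjusted p = 0.472). Fosl1, a FOS relative that accumulates later, showed the widest spread of the tested AP-1 genes, 8.31 to 9.10 in WT and 8.71 to 9.11 in Cry DKO lines, with a difference of 0.24 (95% interval -0.09 to 0.57). Without WT line 2 the difference was 0.13 and without WT line 4 it was 0.40. Its second probe set gave -0.20, and the mean over both probe sets 0.0235. Jund, the brightest of the class, had 10.58, 10.59, 10.51 and 10.78 in WT and 10.78, 10.51, 11.04 and 10.51 in Cry DKO lines. Cry DKO line 3 was the highest of all and the other lines overlapped, and the difference was 0.10 (95% interval -0.15 to 0.34). Fosl2 had a difference of -0.11, Jun 0.09 and Junb 0.07, each with an interval that included 0.

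Fosb, under the floor, had 1.26 in WT line 1 and 3.80 to 4.66 in the other WT lines, and 4.41 to 4.77 in Cry DKO lines. WT line 1 stood far below every other line. With no floor the difference was 1.02 and did not pass (limma adjusted p = 0.382).

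In the EGR class none of 4 genes passed, against 9.17% of all tested genes, beside a median difference of 0.10. Egr1, a zinc finger factor that SRF induces, had 10.84, 11.11, 10.89 and 11.02 in WT lines and 11.19, 11.03, 11.18 and 10.98 in Cry DKO lines. The lines overlapped and the difference was 0.13 (95% interval -0.03 to 0.29, adjusted p = 0.301). Egr3, a related factor, had the widest difference of the 30 tested genes, 0.62 (SE 0.21, 95% interval 0.15 to 1.09), and did not pass (adjusted p = 0.0974). Its values were 5.61, 6.57, 5.90 and 6.36 in WT and 6.62, 6.55, 6.62 and 7.12 in Cry DKO lines. WT lines 1 and 3 lay under the floor, and WT line 2 lay slightly above the lowest Cry DKO line. Without 1 line the difference ran from 0.45 (without WT line 1) to 0.77 (without WT line 2, adjusted p = 0.0615), and with the macrophage marker mean as a covariate it was 0.95. Its second probe set, under the floor, gave 0.24. Egr2 was tight in WT lines (9.42 to 9.49) and spread in Cry DKO lines (9.24 to 9.78). Its difference was 0.08, and its second probe set gave -0.12. Nab2, the corepressor that EGR factors induce, had a difference of 0.03 (95% interval -0.25 to 0.30).

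Of the 4 KLF factors Klf10 alone passed (25.0%, against 9.17% of all tested genes). Klf2, Klf4 and Klf6 had differences of -0.02, 0.10 and 0.01 with adjusted p of 0.946, 0.677 and 0.951. Klf4, one of the pluripotency factors, was spread in WT lines (9.59 to 10.22) and closer together in Cry DKO lines (9.90 to 10.13). Klf6, the brightest of the class, had 10.54, 10.42, 10.51 and 10.44 in WT and 10.59, 10.47, 10.48 and 10.40 in Cry DKO lines. The Cry DKO range enclosed the WT range (95% interval of the difference -0.12 to 0.13).

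Among the phosphatases, 1 of 4 tested genes passed, Dusp1 (25.0%, against 9.17% of all tested genes), and the median difference was -0.22. Dusp5, a nuclear phosphatase of ERK, had 9.44, 9.35, 9.57 and 9.63 in WT lines and 9.24, 9.32, 9.51 and 9.06 in Cry DKO lines. Its difference of -0.22 did not pass (95% interval -0.43 to -0.0048, adjusted p = 0.191). Cry DKO lines 1, 2 and 4 were under every WT line and line 3 was not. Dusp4, another nuclear phosphatase, also had a difference of -0.22 (adjusted p = 0.342), with Cry DKO line 4 lowest at 9.08 and a difference of -0.09 without that line. Dusp6, the cytoplasmic phosphatase of ERK, had 0.07 (95% interval -0.07 to 0.22). Neither of the 2 Sprouty members passed, against 9.17% of all tested genes. Spry2 had 8.06, 8.44, 8.01 and 8.32 in WT and 8.29, 8.01, 8.22 and 8.11 in Cry DKO lines, which overlapped (difference -0.05, 95% interval -0.29 to 0.18). Spry4 had a difference of -0.36 (95% interval -0.86 to 0.13). It had 6.45 to 7.00 in WT lines, 6.56 to 6.62 in Cry DKO lines 1 to 3 and 5.62, under the floor, in Cry DKO line 4. Without that line the difference was -0.12. Other probe sets of Spry4, under the floor and not tested, gave -0.23 and -0.72.

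The remaining regulators held the other pair of genes whose lines did not overlap. Csrnp1, a nuclear factor induced by AXIN, had 7.77, 7.61, 7.68 and 7.81 in WT and 7.57, 7.43, 7.54 and 7.15 in Cry DKO lines. Every Cry DKO line was below every WT line, but the difference of -0.29 (SE 0.11) did not pass (adjusted p = 0.111). Zfp36, tristetraprolin, which speeds decay of messages with AU-rich elements, had 8.87, 8.88, 8.66 and 8.67 in WT and 8.64, 8.53, 8.54 and 8.60 in Cry DKO lines. It too was lower in each Cry DKO line, by 0.19 at the mean (SE 0.07), and did not pass (adjusted p = 0.149). Srf, the factor that binds CArG boxes, had 9.38, 9.26, 9.43 and 9.46 in WT and 9.47, 9.43, 9.41 and 9.34 in Cry DKO lines. The lines overlapped and the difference was 0.03 (95% interval -0.11 to 0.17). The small MAF protein gene Maff had a difference of -0.17, with Cry DKO line 4 at 7.37 and all other lines at 7.96 or above.

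Of the other IER genes Ier3, which protects cells from apoptosis, had 11.14, 10.83, 11.20 and 11.12 in WT and 10.93, 11.07, 11.39 and 11.10 in Cry DKO lines. The lines overlapped and the difference was 0.05 (95% interval -0.17 to 0.27). Ier2 had a difference of 0.04 (95% interval -0.11 to 0.18). Of the secreted factors, Hbegf, a ligand of the EGF receptor, had 11.17 to 11.73 in WT and 10.93 to 11.71 in Cry DKO lines. Its SD within genotype, 0.30, was the largest of the 21 members with a mean over 9. Over all tested genes with such a mean the SD reached 0.80. Hbegf had a difference of -0.17 (95% interval -0.52 to 0.18), and its second probe set gave -0.16. Without Cry DKO line 4 the difference was -0.0285 and without Cry DKO line 3 or WT line 2 it was -0.29. Ptgs2, the inducible enzyme of prostaglandin synthesis, had 12.02, 11.88, 11.96 and 12.19 in WT and 11.91, 12.01, 12.22 and 12.04 in Cry DKO lines. The lines overlapped and the difference was 0.03 (95% interval -0.14 to 0.20). Rhob, a small GTPase, was the steadiest member, with 12.55, 12.61, 12.58 and 12.47 in WT and 12.55, 12.48, 12.43 and 12.43 in Cry DKO lines. WT line 4 and Cry DKO line 1 made the ranges overlap, and the difference was -0.08 (95% interval -0.18 to 0.02). Gem, a small GTPase under the floor, had 3.02 to 5.03 in WT and 3.91 to 4.59 in Cry DKO lines.

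The spread between lines of 1 genotype had a median SD of 0.15 over the 30 genes, against 0.13 over all tested genes. For genes with a mean over 9 it was 0.13 for 21 members and 0.09 for all 3759. The SD ran from 0.06 (Rhob) to 0.39 (Spry4). The median size of the genotype difference in these bright genes was 0.08 for the members and 0.09 for all.

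**Figure D4:**
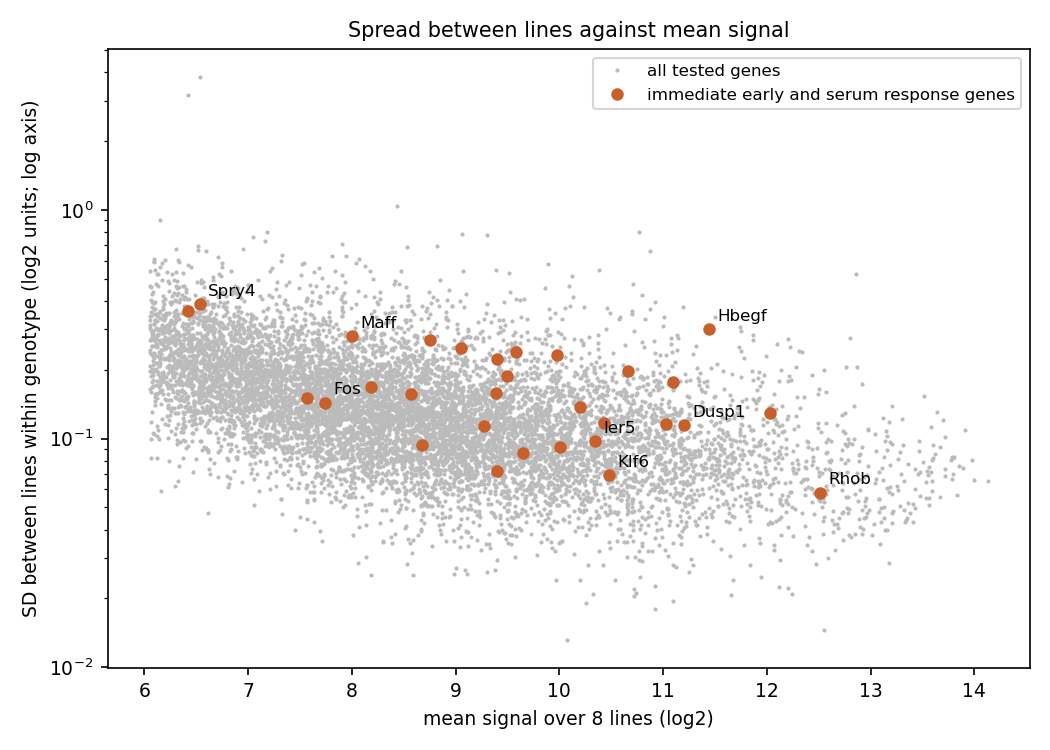
SD between lines within genotype (log axis) against mean signal (log2) for all 9515 tested genes and the 30 members. Dimmer genes vary more, and Hbegf has the largest SD, 0.30, of the members with a mean over 9.

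Lines differed in how the members stood relative to their genotype's mean. Cry DKO line 4 was above that mean for 7 of 30 members (23.3%, against 46.2% of all genes). It was the lowest line of its genotype for 14 of 30 members, against 33.2% of all genes. This line also deviated most over all genes, by 0.13 in the mean absolute deviation, against 0.09 to 0.12 in the other lines. Its 5 lowest deviations were those of Spry4, Maff, Hbegf, Dusp4 and Csrnp1, and its highest those of Egr3 and Egr2. WT line 2 was the lowest WT line for 15 of 30 members, against 26.3% of all genes. It was above its genotype's mean for 9 of 30 (30.0%, against 51.7%), with Hbegf, Fosl1, Ier3 and Dusp4 lowest and Egr3, Klf2 and Nab2 highest. WT line 4 was above it for 21 of 30 (70.0%, against 51.4%), led by Fosl1 and Klf4. The mean deviation of the 4 phosphatases was 0.07, -0.18, 0.06 and 0.06 in WT lines 1 to 4 and 0.05, 0.02, 0.12 and -0.20 in Cry DKO lines 1 to 4. The mean of the 4 EGR genes lay above its genotype's mean by 0.22 in WT line 2 and 0.10 in Cry DKO line 4. In WT line 2 the deviations were 0.46 for Egr3, 0.25 for Nab2, 0.15 for Egr1 and 0.02 for Egr2. The class was split in Cry DKO line 4, with Egr3 (0.39) and Egr2 (0.24) above and Egr1 (-0.12) and Nab2 (-0.13) below. Macrophage marker means were 8.26 in WT line 2, the lowest of all, 8.78 in WT line 4 and 9.21 in Cry DKO line 4. Their part in this variation was not tested.

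**Figure D5:**
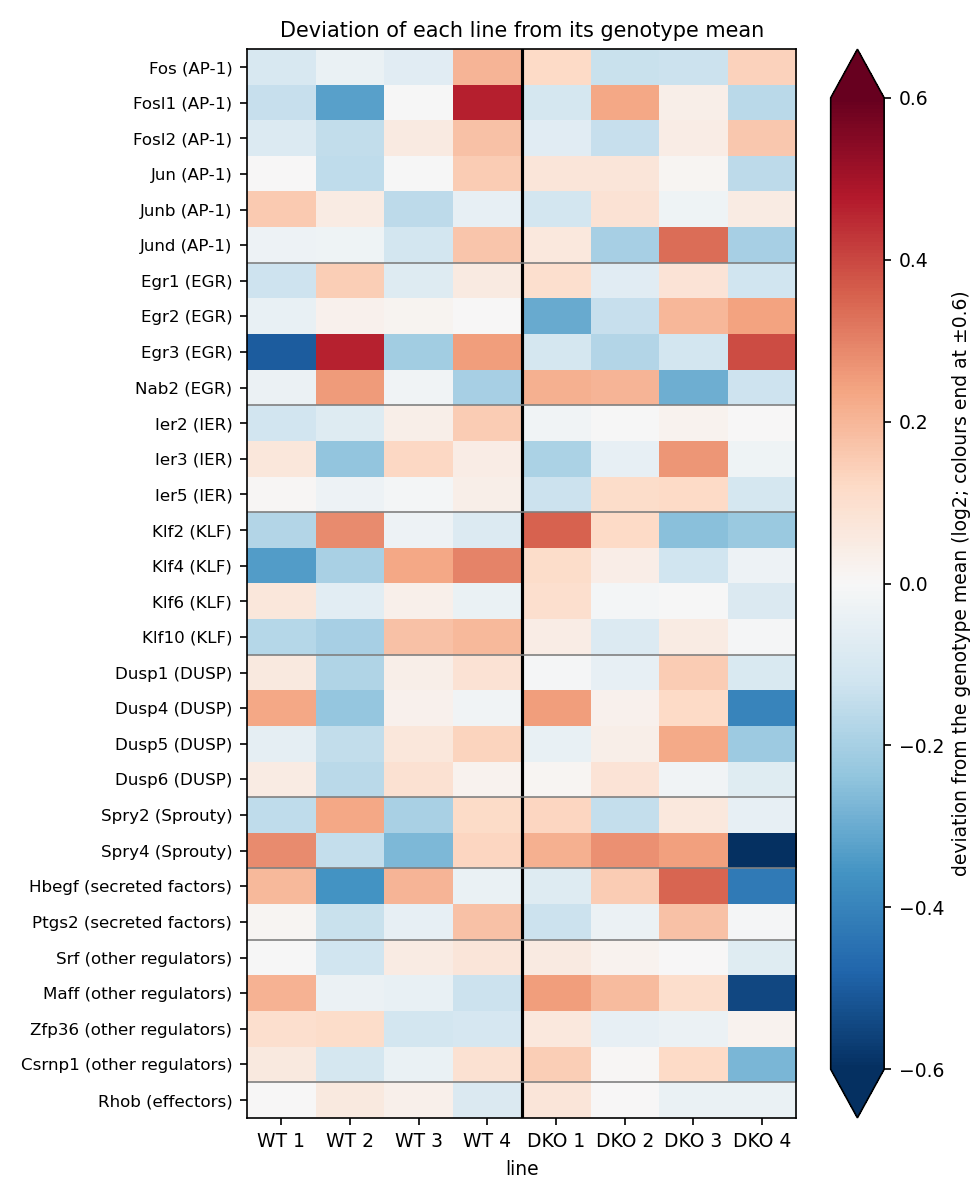
Deviation of each line from its genotype mean (log2, colours end at 0.6 in either direction) for the 30 tested members, ordered by class; the vertical line parts WT from Cry DKO lines. Cry DKO line 4 is low in Spry4, Maff, Hbegf and Dusp4 and high in Egr3.

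With genotype means removed, the median correlation across the 8 lines was 0.11 over the 435 pairs of members, of which 57.9% were above 0, and 0.003 over all pairs of tested genes, of which 50.3% were. All points come from the same 8 arrays, so these are descriptions. Within classes the median was 0.61 for the phosphatases (6 pairs, all above 0) and 0.35 for IER (3 pairs, all above 0). It was 0.29 for the other regulators (6 pairs), 0.12 for AP-1 (15 pairs), 0.11 for EGR (6 pairs) and 0.11 for KLF (6 pairs). Of 14 pairs chosen by shared function, none passed in exact two-sided permutation tests within genotype over 576 rearrangements (adjusted p of 0.898 for each Pearson r and 0.938 or above for each Spearman coefficient). The unadjusted p was 0.101 or above for every r. The highest r, between Dusp4 and Dusp6, was 0.63 (exact permutation p = 0.101; Spearman coefficient 0.38, exact permutation p = 0.344), and 0.57 without the 2 lines farthest from the Dusp4 median. Fos and Egr1 gave 0.16 (exact permutation p = 0.786; Spearman coefficient 0.12, p = 0.799), and 0.41 without the 2 lines farthest from the Fos median. Dusp1 and Zfp36 gave -0.51 (exact permutation p = 0.288; Spearman coefficient -0.43, p = 0.396), and -0.40 without 2 lines.

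Other genes of the pathway were read from lists written down with earlier results known. Of 35 tested other immediate early and serum-induced genes 2 rose and 1 fell (8.57%, against 9.17% of all tested genes; median 0.02). Bhlhe40, a clock repressor, rose by 0.54 and the clock gene Per1 by 0.79, while Btg2, an antiproliferative gene, fell by 0.39 (limma adjusted p = 0.00354, 0.0338 and 0.0229). The call of Per1 ended without WT line 1 or Cry DKO line 1, 2 or 3 (adjusted p = 0.0527 to 0.0785), and that of Btg2 without WT line 1, 2 or 4 (0.0527 to 0.0666). Of 18 other feedback inhibitors of ERK and RNA decay factors 1 rose and 2 fell (16.7%, against the same 9.17%; median 0.08). Spry1, a Sprouty protein, was at 10.26 ± 0.22 in WT and 9.68 ± 0.13 in Cry DKO lines (SD, n = 4 each). It fell by 0.58 (adjusted p = 0.00906, limma), and this call held in each of the 8 fits without 1 line. Spred3, a Sprouty-related inhibitor, fell by 0.47 (adjusted p = 0.0455), and Zfp36l2, a relative of Zfp36, rose by 0.30 (adjusted p = 0.0253). Among the fits without 1 line, the call of Spred3 held in that without Cry DKO line 1 alone (adjusted p = 0.0645 to 0.116 in the other 7). It also ended with no floor (0.0572) and with every probe set tested (0.0524). That of Zfp36l2 ended without WT line 1, 2 or 3 or Cry DKO line 2 (0.0574 to 0.0675), and with the mean over its probe sets (difference 0.18). With no intensity trend the calls of Zfp36l2 and Per1 ended too (adjusted p = 0.0529 and 0.0504).

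Upstream of the members, none of 21 tested genes of the ERK cascade and CREB passed in limma, against 9.17% of all tested genes. Of the 21, 1 had an unadjusted p under 0.05 (4.76%, against 25.3%), and the median was -0.05. The receptor gene Pdgfrb had a difference of -0.17 (adjusted p = 0.0980) and the kinase gene Rps6ka3 one of 0.16 (adjusted p = 0.232). Of 19 SRF cofactors and cytoskeletal SRF targets 1 fell, the myosin light chain Myl9 by 0.22 (limma adjusted p = 0.00944). That is 5.26% of the list, against 9.17% of all tested genes. Of the 19 differences 17 were below 0 (median -0.09), as were 4903 of 9515 over all genes and all 9 of the tested fibroblast markers, while all 19 macrophage and blood cell markers were above 0. With the macrophage marker mean as a covariate the calls of Bhlhe40, Per1, Btg2, Spry1, Spred3, Zfp36l2 and Myl9 each ended (adjusted p = 0.135 to 0.477), with signs unchanged. Of 15 genes listed for AP-1 sites, 13 had a probe set and 9 were tested. Mmp3, Mmp10, Mmp13, Plau, Spp1 and Il11 were not tested, and the sites of the listed genes were not looked for here. None of the 9 passed in limma, against 9.17% of all tested genes. An unadjusted p under 0.05 was found for 5 (55.6%, against 25.3% of all tested genes), and the median difference of the 9 was -0.08. The protease gene Mmp9 had a difference of -0.89 (adjusted p = 0.0828), under the floor in the Cry DKO mean, and the metallothionein gene Mt2 one of -0.20 (adjusted p = 0.0974).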

How the data were processed

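RNA of 4 WT and 4 Cry DKO fibroblast lines was hybridised to Affymetrix 3' expression arrays, 1 per line, from 5 ug, per the labels' protocols. The authors deposited values whose range (0.07 to 14.3) and near-equal array medians fit a log2 scale. That base is inferred, and every difference rests on it. The submitters' processing notes name GCOS, the array software. The summary of probes and the normalisation were not given in the sources used here. Values were used as deposited, which hides any change in total RNA. Groups came from the sample titles.

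Of 30506 probe sets, 24838 are paired with 1 gene by the platform annotation. Symbols follow assembly GRCm38.p6. For each gene the probe set with the highest mean was kept. Genes under the 40th percentile of probe set means (the floor, 6.05) were left out, leaving 9515 genes. limma 3.58.1 (R 4.3.3) with an intensity trend compared the genotypes, two-sided, with Benjamini-Hochberg adjustment and a threshold of 0.05. P-values reflect the spread between separately derived lines, and having 8 arrays limits the precision. The scripts were tested on simulated data. Members and lists were chosen with earlier results of these data known. By the rule for names, every member is accounted for. Members called, and the member of highest mean in each class, are given line by line. From each other list up to 4 called genes are named, or 2 of smallest p where none was called. Other members are given line by line where their lines did not overlap or their unadjusted p was under 0.05, and Fos as the prototype, chosen after their values were seen. Alternatives were other scalings, floors, probe set rules, empirical Bayes settings, array weights, a replicate block, a macrophage covariate and each line left out.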

Additional observations from a re-analysis of the deposited data

Results flagged for a closer look

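In 2 of 64 groups of 4 lines examined (32 genes in 2 genotypes), 1 line stood far from the other 3, where chance gives about 1 in 20 groups. Spry4 had 5.62 in Cry DKO line 4, against 6.56 to 6.62 in the others. Egr3 had 7.12 in the same line, against 6.55 to 6.62 in the others. Both flags rest on the probe set of highest mean, and other probe sets of these genes lay under the floor. For Spry4, one of them had 2.28 in Cry DKO line 4, against 4.38 to 4.83 in the other Cry DKO lines. Another had 6.03 in that line, the highest of its genotype, against 5.74 to 5.95. For Egr3, the second probe set had 5.09 in that line, within the 4.85 to 6.14 of the other Cry DKO lines.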

How the results depend on the processing

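The 30 tested genes were refitted under 20 alternatives, 8 of them without 1 line, in 598 fits, since genes under a raised floor drop out. The direction and the side of the threshold were kept in 546 fits, a call ended in 20 and the sign turned in 32, spread over 14 genes with no call. Dusp1 and Ier5 kept their calls in the other 11 alternatives that use all lines and lost them with the macrophage marker mean as covariate. That fit called 12 genes higher and 20 lower over the whole table, and 0 members higher and 0 lower, against 471, 402, 1 and 2. The call of Klf10 ended, leaving 0 members higher, with quantile normalisation, with arrays centred on the median, with no floor, with the floor at percentile 20, with every probe set tested, with no intensity trend and with array weights. Without 1 line, members called higher were 0 to 1 and lower 1 to 2, and over all genes 222 to 365 higher and 160 to 328 lower, in fits with fewer samples. The lowest of these were without WT line 3.

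Signs turned with the macrophage covariate for Jun (-0.0475), Dusp6 (-0.0279), Klf4 (-0.0301), Klf6 (-0.0888), Srf (-0.0624), Nab2 (-0.13) and Spry2 (0.0091). With the mean over probe sets they turned for Egr2 (-0.0192), Klf4 (-0.0073), Klf6 (-0.0574) and Ptgs2 (-0.0199), and with array weights for Klf2 (0.0129). The cause was not tested. Without 1 line the differences that turned ranged from -0.0154 to 0.16 for Jund, -0.0025 to 0.18 for Egr2, 0.00 to 0.0891 for Ier2, -0.0366 to 0.11 for Ier3, -0.14 to 0.0726 for Klf2, -0.0124 to 0.20 for Klf4, -0.0252 to 0.0374 for Klf6, -0.0291 to 0.0881 for Ptgs2, -0.0103 to 0.055 for Srf, -0.26 to 0.0074 for Maff, -0.0453 to 0.12 for Nab2 and -0.12 to 0.0258 for Spry2. Of 9 genes with several tested probe sets, 5 had differences of both signs (Egr2, Fosl1, Klf4, Klf6 and Ptgs2), none of which passed. Among pair correlations the sign turned in Spearman's coefficient for Fos and Jun (-0.10), Egr1 and Ier2 (-0.0238) and Spry2 and Spry4 (-0.14). Without the 2 farthest lines it turned for Egr1 with Egr2 (0.13), Nab2 (-0.0364), Dusp1 (0.0879) and Ier2 (-0.23), and for Klf6 and Klf10 (-0.014). In the shorter promoter window the CArG box stayed at 4 genes (1.22% of all genes, from 1.81%). The E-box went from 6 to 4 (6.19% of all genes, from 8.09%). The TGACG core went from 12 to 9 (18.6% of all genes, from 23.0%) and EGR sites from 7 to 5 (3.35%, from 3.93%).

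Lines share replicate numbers, but deviations of same-numbered lines correlated at 0.36, 0.12, 0.23 and -0.01. The labels do not say that the numbers pair lines and the fourth pair did not correlate above 0, and the numbers were not taken as pairs. As a hint of a shared factor from the data, 6 of 8 lines correlated best with their own number. A replicate block gave 564 genes higher and 486 lower, and 1 member higher and 2 lower, with no call of a member changed.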
